A study of Mus musculus with 18 samples.

Results

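Haematopoietic stem cells (HSC) sorted from the bone marrow of Dnmt1 mutant mice were compared with HSC from wild-type mice across all measured genes. The 6 HSC libraries, 3 from mutants and 3 from controls, are 6 of 18 libraries in the series, and were chosen by their labels alone. The other 12 libraries hold MPP4 (8 libraries) and MPP1 (4 libraries), which are multipotent progenitors downstream of HSC in common usage. All mice were of the BALB/c strain, and all cells were lineage-negative bone marrow progenitors.

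HSC mutants 1, 2 and 3 carried a mutated Dnmt1, and HSC controls 1, 2 and 3 were wild type. The genotype field writes the mutants as dnmt1-/-, whereas the description of the series speaks of a mutation designed after missense, hypomorphic alleles found in fish. No age, sex or time point is given for the animals. Mutant 1 and control 1 were sequenced in batch A and the other 4 libraries in batch C. Column names carry an ID number for each HSC library, which recurs in MPP4 for all 6 and in MPP1 for the 4 of batch C. Whether an ID number stands for an animal is not stated, and p-values therefore reflect variation among libraries that could in part be technical.

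Dnmt1 is the maintenance DNA methyltransferase: after replication it copies the methylation of CpG dinucleotides from the old strand onto the new one, guided by Uhrf1. Methylation of promoters is known to keep a set of germline genes silent in somatic cells, and it marks imprinted genes and silenced endogenous retroviruses. HSC are mostly quiescent cells that give rise to all blood lineages, and loss of Dnmt1 in mice is known to impair their self-renewal and their lymphoid output.

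Promoters of the genes that the results turn on are printed first, because DNA methylation acts on their CpG dinucleotides. Each run covers 250 bases before to 50 bases after the start of the gene (300 bases, RefSeq, GRCm38.p6, 5′ to 3′ on the gene's strand), with every CpG in capitals. They belong to Slc25a31 (chr3:40708621-40708920, plus strand), 3830403N18Rik (chrX:56136322-56136621, plus), Xlr3a (chrX:73097046-73097345, minus) and Xlr4b (chrX:73214083-73214382, plus), all higher in mutant HSC.
Slc25a31: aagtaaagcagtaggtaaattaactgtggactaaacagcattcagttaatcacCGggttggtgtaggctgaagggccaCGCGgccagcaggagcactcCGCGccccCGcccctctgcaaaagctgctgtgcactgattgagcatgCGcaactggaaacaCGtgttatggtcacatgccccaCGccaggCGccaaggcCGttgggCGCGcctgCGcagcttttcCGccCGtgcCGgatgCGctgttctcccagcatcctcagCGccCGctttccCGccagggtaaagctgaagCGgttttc
3830403N18Rik: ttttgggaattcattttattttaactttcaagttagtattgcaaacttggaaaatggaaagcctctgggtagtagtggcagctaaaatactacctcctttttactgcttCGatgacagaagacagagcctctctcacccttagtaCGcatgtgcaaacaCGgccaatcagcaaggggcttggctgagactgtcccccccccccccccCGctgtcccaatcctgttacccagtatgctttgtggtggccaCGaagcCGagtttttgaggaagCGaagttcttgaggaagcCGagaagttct
Xlr3a: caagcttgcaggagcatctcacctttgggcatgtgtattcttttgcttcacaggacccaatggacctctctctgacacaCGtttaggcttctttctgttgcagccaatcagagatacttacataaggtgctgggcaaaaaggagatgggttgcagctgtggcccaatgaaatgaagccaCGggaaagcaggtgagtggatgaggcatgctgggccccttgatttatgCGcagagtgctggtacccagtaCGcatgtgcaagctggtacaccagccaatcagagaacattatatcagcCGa
Xlr4b: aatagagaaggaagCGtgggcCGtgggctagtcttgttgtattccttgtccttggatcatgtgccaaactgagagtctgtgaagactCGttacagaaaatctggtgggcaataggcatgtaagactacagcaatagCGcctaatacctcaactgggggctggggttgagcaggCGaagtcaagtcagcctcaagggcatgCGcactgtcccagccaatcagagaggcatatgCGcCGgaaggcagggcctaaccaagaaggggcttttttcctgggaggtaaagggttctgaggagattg
The Slc25a31 promoter holds 22 CpGs, that of 3830403N18Rik 8, that of Xlr3a 5 and that of Xlr4b 8. The median over the 7052 genes tested in HSC that have a promoter in the table was 22. One match to TTTCCCGC, a motif of E2F factors, lies near the end of the Slc25a31 promoter, and 1.11% of 27025 promoters hold it on either strand. The other 3 promoters hold none.

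A second pair of promoters belongs to Fos (chr12:85473640-85473939, plus) and Fosb (chr7:19309996-19310295, minus), which also stood higher in mutant HSC. Capitals mark TGACG, the core of the cAMP response element, on the printed strand.
Fos: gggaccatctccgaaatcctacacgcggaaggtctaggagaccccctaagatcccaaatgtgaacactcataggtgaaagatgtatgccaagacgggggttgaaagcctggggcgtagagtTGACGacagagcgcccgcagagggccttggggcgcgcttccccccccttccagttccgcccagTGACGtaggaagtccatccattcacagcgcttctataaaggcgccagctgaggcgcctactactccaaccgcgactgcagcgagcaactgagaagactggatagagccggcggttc
Fosb: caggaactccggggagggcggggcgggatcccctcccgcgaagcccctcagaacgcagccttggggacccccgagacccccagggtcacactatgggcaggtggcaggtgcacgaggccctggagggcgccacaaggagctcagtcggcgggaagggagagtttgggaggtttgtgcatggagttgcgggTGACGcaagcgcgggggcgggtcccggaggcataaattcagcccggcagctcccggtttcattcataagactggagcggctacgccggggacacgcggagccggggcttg
The core occurs at 2 places in the Fos window and at 1 in that of Fosb, and 21.0% of all promoters hold it on either strand. The CArG box, the binding motif of serum response factor, was found in neither window and is present in 1.57% of promoters. Sequence further upstream was not searched, so a site beyond the windows would be missed.

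Libraries held 577629 to 1211250 counts in mutants and 354642 to 1004281 counts in controls. Of 29717 genes in the table, 21061 had a count in an HSC library and 9147 passed the filter on low counts. Levels are in CPM, which divides out the TMM-scaled total of each library; a CPM near 1 is about 1 count in the deepest of them.

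A pair of libraries carried transcripts of other cells. The 14 erythroid markers summed to 15535, 977 and 945 CPM in mutants 1, 2 and 3, against 1127, 962 and 818 CPM in controls 1, 2 and 3. The 16 neutrophil markers summed to 2105, 30.1 and 61.1 CPM in mutants, against 127.8, 26.2 and 123 CPM in controls. The 20 B cell markers summed to 114, 38.01 and 57.7 CPM in mutants, against 37135, 53.3 and 41.9 CPM in controls, and in control 1 nearly all of it came from the immunoglobulin genes Igkc (12430 counts) and Ighm (8903 counts). Mutant 1 thus stood apart in erythroid and neutrophil transcripts and control 1 in immunoglobulin transcripts, and both belong to batch A. The 11 megakaryocyte markers summed to 110.5, 605 and 371 CPM in mutants, against 100, 245 and 120 CPM in controls. T cell (16 markers), NK and innate lymphoid (14), monocyte (15), dendritic (14), mast cell (14) and endothelial or stromal markers (16) ranged from 7.07 to 438 CPM in mutants, against 7.48 to 546 CPM in controls. In bulk samples, fewer cells of a type and less RNA per cell cannot be told apart.

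Xist, the RNA that silences one X chromosome in female cells, stood at 8.36, 2062 and 1.70 CPM in the mutants, against 1362, 1.87 and 2899 CPM in the controls. High Xist was thus found in mutant 2 and controls 1 and 3. The Y-linked gene Ddx3y ran the other way, at 178, 4.42 and 158 CPM in mutants, against 10.4, 178 and 8.38 CPM in controls. By these transcripts mutants 1 and 3 and control 2 were male and the others female. In batch A a male mutant was thus set against a female control, so sex and genotype cannot be told apart there. X-linked genes are reported below with this in view.

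**Figure D1:**
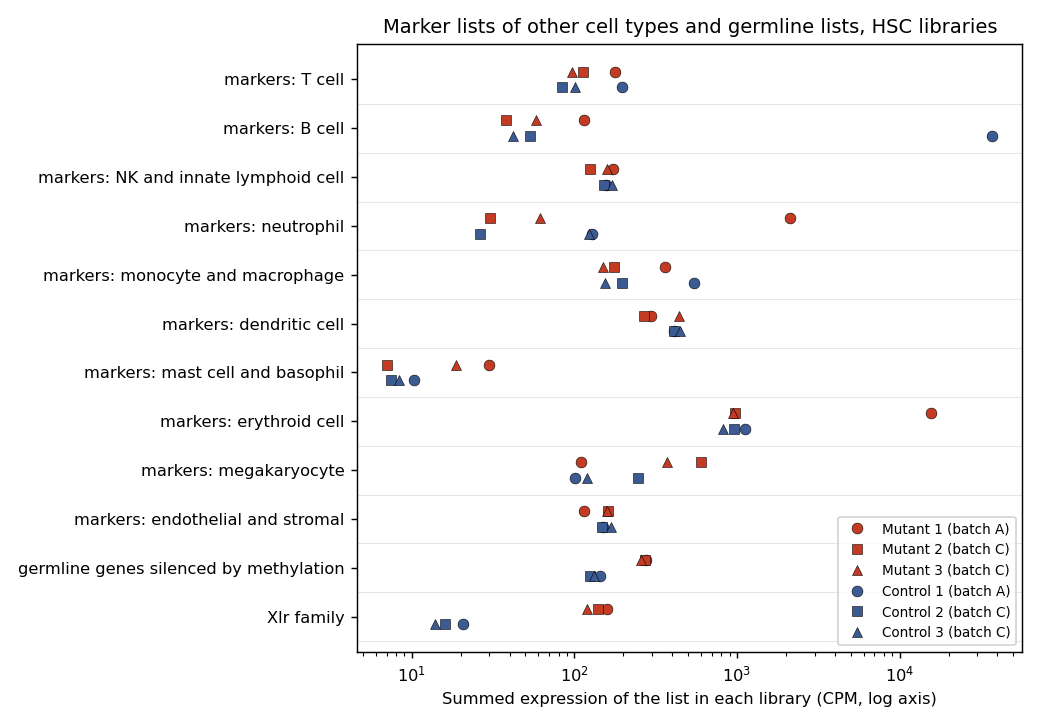
Summed expression of each marker list, of the germline list and of the Xlr family in each HSC library (CPM, log axis); red marks are mutants, blue marks are controls, and shapes give the replicate. Mutant 1 stands out at 15535 CPM of erythroid markers and control 1 at 37135 CPM of B cell markers, while the germline list and the Xlr family separate mutants from controls.

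Dnmt1 transcript (chromosome 9, 20907209 to 20959888, minus strand, GRCm38) was present in every HSC library. It stood at 123, 317 and 304 CPM in mutants, against 104, 223 and 288 CPM in controls, and the groups overlapped. The log2 fold change was 0.28 (SE 0.23, edgeR adjusted p = 0.713). With a missense allele the transcript can stay at its normal level, and this value is no check of the labels. Uhrf1 differed by 0.58 (SE 0.30, adjusted p = 0.521).

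The genes that define the gate were detected in all 6 libraries. Kit, the receptor of stem cell factor, averaged 446 ± 65.0 CPM in mutants and 577 ± 97.8 CPM in controls (SD, n = 3 each). Slamf1, which encodes CD150 of HSC, averaged 79.6 ± 39.6 and 58.4 ± 32.1 CPM in mutants and controls, and Ly6a, which encodes Sca-1, 49.7 ± 16.1 and 54.9 ± 18.4 CPM. Procr, which encodes the HSC marker EPCR, stood at 78.0, 39.8 and 74.6 CPM in mutants, against 98.4, 95.4 and 109 CPM in controls. Every mutant lay below every control for Procr, but the change of −0.68 (SE 0.28) did not pass (edgeR adjusted p = 0.416). Cd34 (−0.50), Flt3 (−0.42) and Mecom (−0.62), a transcription factor that HSC require, did not pass either, with adjusted p = 0.501, 0.725 and 0.434. Cd48, a marker of progenitors past the HSC stage, differed by 0.91 (SE 0.43, adjusted p = 0.493).

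Germline and Xlr genes, AP-1 factors, a heat-shock gene and single genes of other kinds differed between mutant and control HSC. In all, 22 of 9147 genes passed edgeR's quasi-likelihood test with batch as a term (0.241% at an adjusted p under 0.05). Of these, 20 were higher (0.219%) and 2 lower in mutants (0.0219%). The 22 had the same sign in batch A and in batch C, which is no separate support, as the calls rest on those same libraries. Over all tested genes the median log2 fold change was 0.0134, and 51.4% of genes had a positive one. At an unadjusted p under 0.05 there were 537 genes higher (5.87%) and 379 lower (4.14%). With replicate number as a block, 39 genes passed (0.426%), 32 higher and 7 lower, and they included the 22. Among the 20 genes higher in mutants, 16 had every mutant above every control, as had 4.57% of all tested genes. The genes were called on these same libraries, so their separation is no separate support. For 5 of the 20 (Slc25a31, 3830403N18Rik, Hspa1b, Xlr3a and Klf4) no control library reached the level of the count filter. These were tested only because mutants were high, and their direction was fixed by it. Xlr4b and n-R5-8s1 reached it in 3 mutants and 1 control, and Hnrnpf in 3 and 2. Nrk reached it in 1 mutant and 3 controls, and Gm38082 in 2 and 3. For these genes the group with lower expression would not have met the filter alone, so they too were tested through the higher group. Of the 2 lower ones, 1 had every mutant below every control, as had 4.88% of all tested genes, which is no separate support either. In batch C alone, which leaves out mutant 1 and control 1, 18 genes passed and 12 of these belonged to the 22. There were 5 without the batch term, 9 with a spread shared over all 18 libraries and 11 with DESeq2. Leaving out 1 library moved the count to between 13 (without mutant 2) and 83 (without mutant 3), with 51 without control 2 and 39 without control 3.

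**Figure D2:**
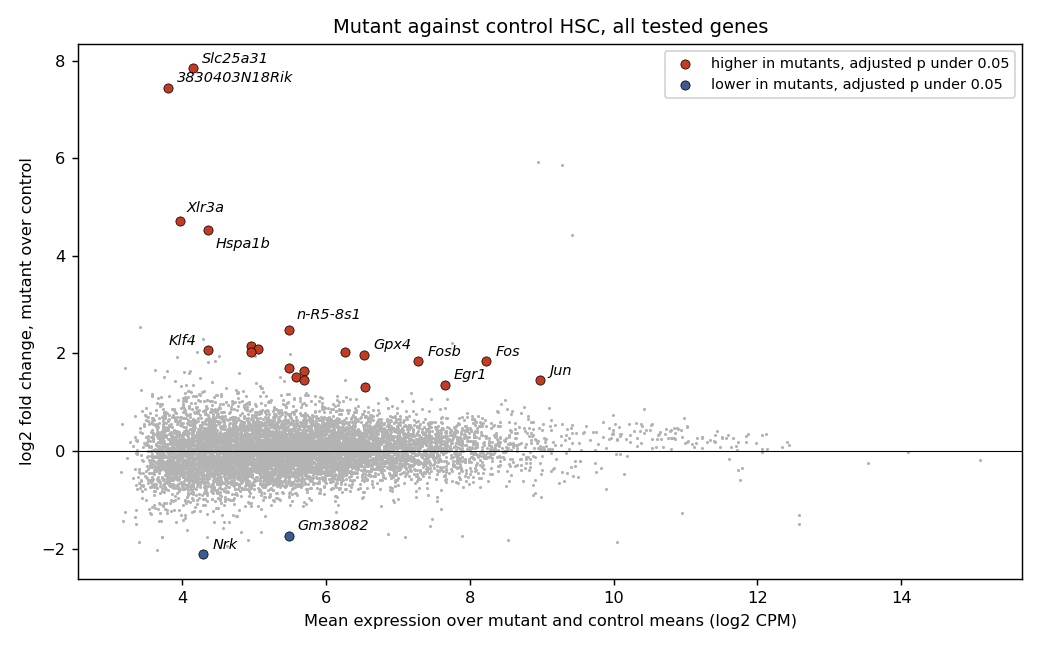
Log2 fold change of mutant over control against mean expression (log2 CPM) for the 9147 tested genes; coloured points passed the adjusted threshold. Slc25a31 and 3830403N18Rik lie highest at 7.85 and 7.44, and of the 22 coloured points only Nrk and Gm38082 lie below 0. The grey points near 6 are globin genes, which rest on mutant 1.

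**Figure D3:**
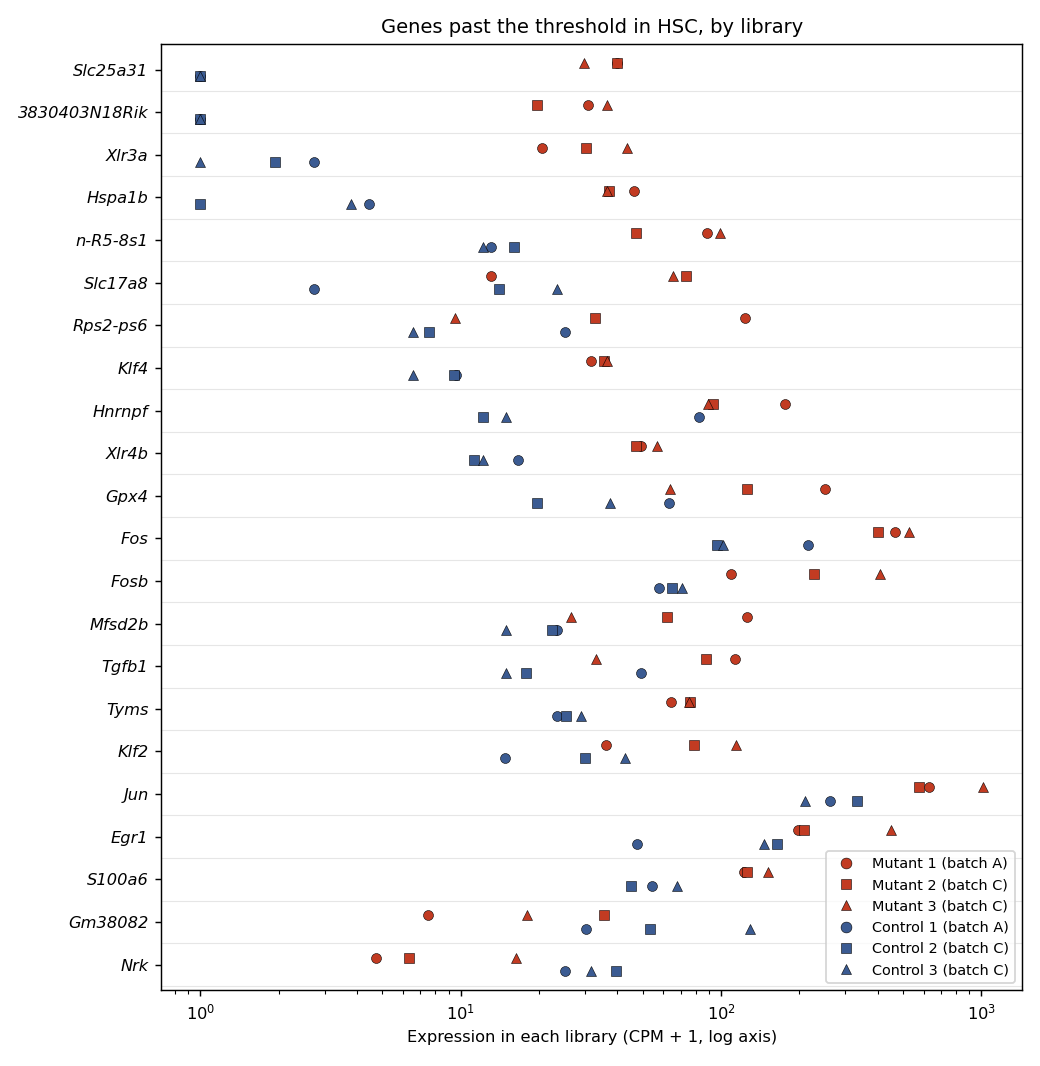
Expression of the 22 genes in each library (CPM + 1, log axis), with mutants in red above controls in blue and a shape for each replicate. For 16 of the 20 upper genes all red marks lie right of all blue ones, and for Nrk they lie left.

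Slc25a31 encodes an ADP/ATP carrier of mitochondria in male germ cells and is a textbook target of promoter methylation in somatic tissue. It had 42, 44 and 17 counts in mutants and no count in any control. In CPM these were 39.01, 38.90 and 28.83 in mutants, so every mutant was well above the floor of the controls. With the floor set at 3 counts over the control group, the level in mutants was at least 24.6-fold higher (edgeR adjusted p = 4.12e-05). The gene lies on chromosome 3, 40708855 to 40726096, and its call held in all 15 alternative settings. These settings reuse the same HSC libraries, and in the main fit the gene was tested only because mutants were high. The settings are therefore no separate support.

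The X-linked gene 3830403N18Rik (56136572 to 56153498, plus strand) showed the same pattern. It had 32, 21 and 21 counts in mutants and none in any control, at least 17.7-fold higher (adjusted p = 0.000282). Its level was 29.7, 18.6 and 35.6 CPM in mutants 1, 2 and 3. Mutant 2, with high Xist, and mutants 1 and 3, with low Xist, all lay above the controls, whether these had high or low Xist. With the Xist level as a further term, the call held, as it did in all 15 settings. The limits given for Slc25a31 apply here too.

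Xlr genes form an X-linked family that is related to a protein of the synaptonemal complex, and its copies are near-identical, so that counts may be split or shared among them. Xlr3a (73086293 to 73097095, minus strand) had 21, 33 and 25 counts in mutants, against 1, 1 and 0 counts in controls. The pooled ratio was 28.3 (95% counting interval 7.59 to 238) and the edgeR adjusted p was 0.000345. Xlr4b (73214333 to 73222453, plus strand, within Xlr5a on the other strand) stood at 48.3, 46.0 and 56.0 CPM in mutants, against 15.5, 10.3 and 11.2 CPM in controls. Its log2 fold change was 2.02 (SE 0.37, adjusted p = 0.00524), and the call was lost without control 2, without the batch term and with DESeq2 (adjusted p up to 0.181, from 0.000157). With the Xist level as a further term in edgeR, the adjusted p was 0.00309 for Xlr3a and 0.0242 for Xlr4b.

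The 4 other Xlr genes with a count were too low to be tested, and each was higher in mutants. Xlr had 24, 27 and 1 counts in mutants, against 0, 1 and 0 counts in controls. Xlr4a had 38, 18 and 3 counts in mutants, against 1, 1 and 1 counts in controls. Xlr4c had 36, 26 and 7 counts in mutants, against 1, 3 and 0 counts in controls. Xlr3b had 1, 2 and 1 counts in mutants and none in controls. Summed over the family, expression was 160, 140 and 119 CPM in mutants, against 20.7, 15.9 and 14.0 CPM in controls, with no overlap. The other 6 of the 12 listed Xlr genes had no count in HSC.

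A list of 75 germline genes, drawn up as genes that methylation keeps silent, held 43 genes with a count, of which 6 could be tested. Among these, Syce2, Tex10, Taf9b and Tdrkh had counts in every control and so were not silent there. Slc25a31 and 3830403N18Rik rose, and 3830403N18Rik was added to the list with its earlier result known. Syce2, which encodes a protein of the central element of the synaptonemal complex, stood at 73.4, 53.04 and 54.3 CPM in mutants, against 17.3, 27.1 and 39.1 CPM in controls. Its change of 1.17 (SE 0.33) did not pass (edgeR adjusted p = 0.203), although no mutant overlapped a control. Tex10 (0.34), Taf9b (−0.02) and Tdrkh (−0.17) did not pass either, with adjusted p = 0.740, 0.992 and 0.927.

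Germline genes too low to be tested were uneven among themselves. Rnf17, a Tudor-domain gene of germ cells, had 7, 15 and 3 counts in mutants, against 1, 0 and 0 counts in controls. Hormad2, which encodes a meiotic chromosome axis protein, had 9, 10 and 6 counts in mutants, against 2, 0 and 0 counts in controls. Syce1, a partner of Syce2, had 4, 8 and 1 counts in mutants and none in controls, and Tex19.1, a gene of germ cells and placenta, had 1, 8 and 3 counts in mutants and none in controls. These 4 genes were picked after their values were seen.

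Many well-known germline markers stayed at or next to 0 in both genotypes. Dazl had no count in mutants and 1 in controls, Sycp3 had 1 and 0, and Ddx4, which encodes the germ cell helicase VASA, had 3 and 3. Of the 43 genes with a count, 25 were higher in mutants by pooled CPM and 18 lower (58.1% higher), and over all 21061 genes with a count 47.9% were higher. Summed over the list, expression was 274, 273 and 256 CPM in mutants, against 143.3, 125 and 131 CPM in controls. Without Slc25a31 and 3830403N18Rik it was 205, 216 and 192 CPM in mutants, against 143.3, 125 and 131 CPM in controls. These sums include Syce2, Tex10, Taf9b and Tdrkh, which were expressed in controls, so they do not measure silent genes alone.

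Genes that were off in controls and on in mutants were then counted without a model. There were 71 genes with no count in any control and at least 1 in every mutant, and 33 of the reverse kind. At a minimum of 3 counts in each library of the group that was on, the numbers were 8 and 0. Mutants held 2856430 counts in all, against 1957461 counts in controls and were thus the deeper group. After every library was thinned to 354642 counts, the numbers were 54 and 58 at a minimum of 1 count, and 4 and 0 at a minimum of 3 counts. In this single random draw the excess at 1 count was absent at equal depth, whereas a few genes with higher counts kept it. The spread over repeated draws was not measured.

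The 8 genes with at least 3 counts in every mutant and none in any control begin with Slc25a31 and 3830403N18Rik. Gm128 (chromosome 3, 95236920 to 95241598, minus strand, overlapping Bnipl) had 13, 20 and 10 counts in mutants, at least 10.3-fold higher. Ckm, the creatine kinase of muscle (chromosome 7, 19404776 to 19422841), had 20, 4 and 3 counts, at least 6.46-fold higher, with most of them in mutant 1. Gm20756 and Gm10451, both annotated as long non-coding RNAs, had 6, 9 and 11 and 13, 8 and 3 counts, at least 6.22-fold and 5.74-fold higher. RP23-238I17.9 had 8, 6 and 3 counts and Slc24a3, a sodium, potassium and calcium exchanger, had 5, 5 and 3 counts, at least 4.06-fold and 3.11-fold higher. The genes of the reverse kind were sparser: Mettl21b, a lysine methyltransferase gene, had 4, 3 and 1 counts in controls and Cux2, a homeobox gene, 1, 5 and 2 counts in controls, each with none in mutants.

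**Figure D4:**
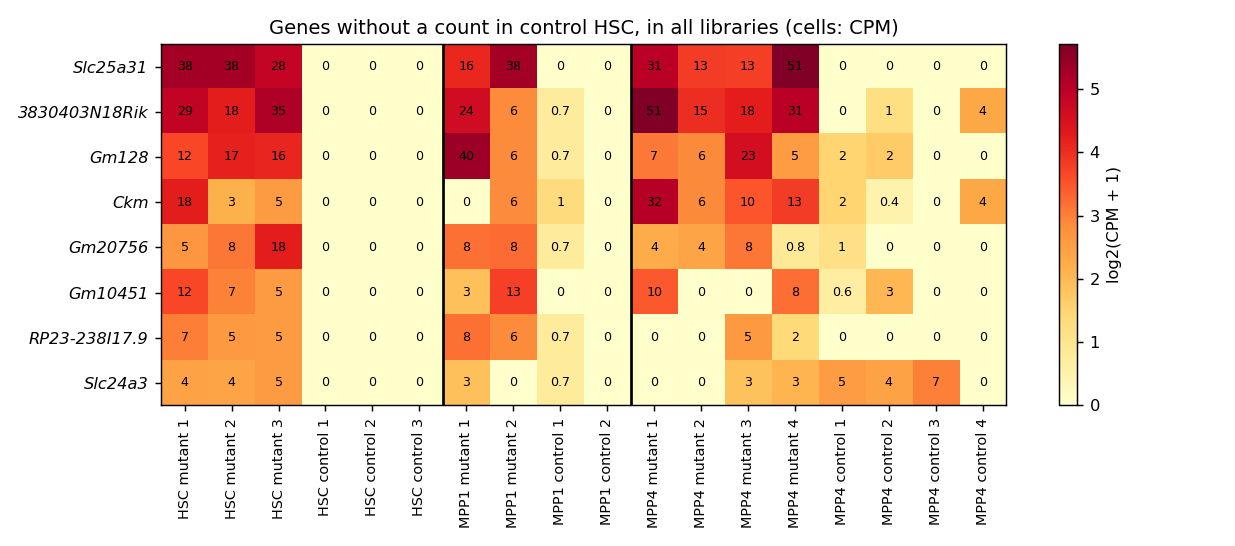
Expression (CPM, scaled over all 18 libraries; colour is log2 of CPM + 1) of the 8 genes with at least 3 counts in every HSC mutant and none in any HSC control, in all libraries, mutants left of controls in each population. Slc25a31 is at 12.8 to 51.4 CPM in every MPP4 and MPP1 mutant library but 0 in every control, whereas Slc24a3 is also present in 3 of 4 MPP4 controls.

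In the other populations Slc25a31 had the same pattern, with 12.8 to 51.4 CPM in the 6 MPP4 and MPP1 mutants and 0 CPM in their controls. All but 1 of these mutants, MPP4 mutant 2, share an ID number with an HSC library, so they cannot be taken as independent of HSC. 3830403N18Rik stood at 6.25 to 51.1 CPM in the mutants of both, against 0 to 4.02 CPM in the controls. Slc24a3 did not follow: it reached 3.27 CPM at most in MPP4 mutants, against 7.01 CPM in an MPP4 control.

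Promoter CpG content varied widely among the genes that were higher in mutants. The 17 of 20 with a promoter in the table had a median of 15 CpGs (3 to 40), against 22 over all tested genes. Tested genes with 5 to 9 CpGs numbered 547 and held 7 of the 17, while their median log2 fold change was −0.11. Genes with 20 to 29 CpGs numbered 2441 and held 3, with a median of 0.05. Promoters of genes off in controls and on in mutants had a median of 9 (40 of 71 with a promoter), against 10 for genes with a count that were too low to be tested.

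A group of AP-1 and other immediate-early genes rose in mutant HSC. These genes are induced within minutes of a stimulus, also by the handling of cells, whose part here was not tested, and Fos and Jun proteins pair into the AP-1 transcription factor. Of 40 listed genes, 27 were tested and 6 rose, where 0.219% of all genes did, 17 were higher and the median was 0.30 against 0.0134 over all genes. The list was chosen with earlier results of these data known, so its share of risen genes is no separate support. Fos (chromosome 12, 85473890 to 85477273) stood at 463, 401 and 524 CPM in mutants, against 214, 95.4 and 101 CPM in controls. Every mutant thus lay above the highest control, and the log2 fold change was 1.84 (SE 0.26, edgeR adjusted p = 0.000248). It was lost without the batch term (adjusted p = 0.219). The difference was 1.11 in batch A and 2.20 in batch C.

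Fosb (chromosome 7, 19302696 to 19310051) stood at 109, 227 and 407 CPM in mutants, against 57.0, 63.6 and 69.8 CPM in controls, a change of 1.84 (SE 0.29, adjusted p = 0.0011). Controls lay close together and mutants were spread, with mutant 3 highest. Jun (chromosome 4, 95049034 to 95052222, overlapping its antisense gene Junos) stood at 631, 576 and 1016 CPM in mutants, against 261, 332 and 209 CPM in controls, a change of 1.45 (SE 0.26, adjusted p = 0.00524). Fosb was lost without the batch term or with a shared spread (adjusted p up to 0.443, from 7.44e-09). Jun was lost in the same settings, without control 3 and with Xist as a term (adjusted p up to 0.418, from 2.88e-06).

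Egr1, a zinc-finger factor that holds HSC in quiescence, stood at 197, 207 and 449 CPM in mutants, against 46.6, 163 and 145 CPM in controls. The change of 1.36 (SE 0.29) passed (edgeR adjusted p = 0.0334) but did not hold with mutant 1 left out (0.448), nor with mutant 3 (0.113), control 1 (0.366) or control 3 (0.0822). Klf4, a Krüppel-like factor, stood at 30.7, 34.5 and 35.6 CPM in mutants, against 8.63, 8.42 and 5.59 CPM in controls, with both groups tight. Its change was 2.06 (SE 0.43, adjusted p = 0.0248), which was lost when any library other than mutant 3 was left out (adjusted p up to 0.204). Klf2, singled out after its values were seen as the last of the 22, stood at 35.3, 77.8 and 114 CPM in mutants, against 13.8, 28.995 and 41.9 CPM in controls (1.45, SE 0.32, adjusted p = 0.0381). It was lost when any 1 library was left out (adjusted p from 0.0514 to 0.176).

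The relatives of these factors did not all move. Jund differed by 0.46 (SE 0.26, adjusted p = 0.554) and Junb by 0.15 (SE 0.31, adjusted p = 0.90). Klf6 had every mutant above every control and a change of 0.87 (SE 0.30, adjusted p = 0.322). Dusp6, a phosphatase that switches off ERK, differed by −0.84 (SE 0.31, adjusted p = 0.368).

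One heat-shock gene rose. Hspa1b, an inducible HSP70 chaperone (chromosome 17, 34956436 to 34959238, minus strand), had 49, 41 and 21 counts in mutants, against 2, 0 and 1 counts in controls. The pooled ratio was 26.5 (95% counting interval 8.85 to 131) and the edgeR adjusted p was 0.000146, and 0.218 with a shared spread. Its near-identical neighbour Hspa1a, too low to be tested, had 29, 7 and 10 counts in mutants, against 1, 0 and 0 counts in controls, and reads may be shared between the pair. Of 28 listed chaperone genes, 23 were tested, Hspa1b alone passed and 14 were higher (median 0.20, or 0.07 in batch C alone). Hspa8, the constitutive HSP70, stood at 1035, 338 and 139 CPM in mutants, against 497, 182 and 111.7 CPM in controls (0.81, adjusted p = 0.324), and the mitochondrial chaperonin Hspd1 differed by 0.68 (adjusted p = 0.343).

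Cell cycle genes were mostly higher in mutants, but a single one passed. Tyms, the thymidylate synthase that supplies dTTP for DNA synthesis, stood at 63.2, 75.1 and 74.6 CPM in mutants, against 22.4, 24.3 and 27.9 CPM in controls. The groups were tight and far apart, with a change of 1.53 (SE 0.31, edgeR adjusted p = 0.0183), yet the call was lost without mutant 1, mutant 2, control 1 or control 2 (adjusted p from 0.0839 to 0.13). Of 69 tested S phase genes 67 were higher, 26 at an unadjusted p under 0.05 (5.87% over all genes), and 16 had every mutant above every control (4.57% over all genes). Their median was 0.54, or 0.31 in batch C alone. The list summed to 6533, 5661 and 4999.7 CPM in mutants, against 3356, 3965 and 5013 CPM in controls, so mutant 3 lay just below control 3. Tk1, thymidine kinase of the salvage pathway, stood at 79.0, 73.4 and 69.5 CPM in mutants, against 34.5, 36.5 and 22.3 CPM in controls (1.18, SE 0.30, adjusted p = 0.114, and 0.0457 with replicate number as a block). Rrm1, a subunit of ribonucleotide reductase, differed by 0.89 (adjusted p = 0.203).

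Among 75 tested G2 and mitosis genes none passed, 71 were higher, 44 had an unadjusted p under 0.05 in that direction and 27 had every mutant above every control. Their median was 0.74, or 0.62 in batch C alone. Mki67, the proliferation antigen Ki-67, stood at 195, 431 and 205 CPM in mutants, against 86.3, 158 and 159 CPM in controls (1.07, SE 0.26, adjusted p = 0.0819). H2afz, the histone variant H2A.Z, differed by 1.06 (SE 0.27, adjusted p = 0.115). With replicate number as a block, both passed (adjusted p = 0.0251 each). The list's summed level was 6115, 6699 and 5475 CPM in mutants, against 3254, 4099 and 4670 CPM in controls, so the lowest mutant lay above the highest control. Among quiescence genes and CDK inhibitors, Egr1 alone of 25 passed (median 0.06). Ccnd1, the G1 cyclin D1, differed by 1.08 (SE 0.30, adjusted p = 0.191).

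Genes of energy and protein production leaned upwards in mutants to a degree that varied with mutant 1. Ribosomal protein genes were higher in 79 of 80, with a median of 0.34, and none passed (14 had an unadjusted p under 0.05, and Rpl29 passed with replicate number as a block, adjusted p = 0.0207). Without mutant 1 the median was 0.16 and 69 were higher. Nuclear genes of the respiratory chain were higher in 72 of 76, with a median of 0.47, or 0.26 without mutant 1, and none passed (31 had an unadjusted p under 0.05). The 14 and the 31 genes were all higher in mutants, as were 5.87% of all tested genes at that unadjusted p. The ribosomal genes summed to 237350, 139063 and 148572 CPM in mutants, against 153836, 133699 and 133364 CPM in controls, so that mutant 1 stood apart. Transcripts of the mitochondrial genome showed no such lean (9 tested, 4 higher, median −0.18).

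Gpx4, the peroxidase that reduces lipid peroxides, rose alone among 32 tested genes of glutathione and peroxide defence (26 higher, median 0.23, or 0.02 in batch C alone). It stood at 250, 125 and 62.8 CPM in mutants, against 62.2, 18.7 and 36.3 CPM in controls. The lowest mutant and the highest control were nearly level, so the change of 1.98 (SE 0.30, edgeR adjusted p = 0.000553) was called with the batch term in the model, and without it the adjusted p was 0.964. Within batches the differences were 1.97 and 1.67 in A and C.

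Erythroid and megakaryocyte genes stood higher and stem cell genes lower in mutants. The erythroid and stem cell leans were smaller in batch C alone. Mfsd2b, which carries sphingosine-1-phosphate out of red cells and platelets, was alone among 37 erythroid genes in passing. It stood at 124, 61.0 and 25.4 CPM in mutants, against 22.4, 21.5 and 14.0 CPM in controls (1.70, SE 0.37, edgeR adjusted p = 0.0334), with mutant 1 highest and mutant 3 close to the controls. Its call held in 6 of 15 alternative settings. It was lost without mutant 1 (adjusted p = 0.93), mutant 2, control 1 or control 3, in batch C alone and without the batch term. Xist as a term, a shared spread and DESeq2 lost it as well. Of the 37, 30 were higher with a median of 0.75, or 0.22 in batch C alone, where 22 of 32 were higher. The erythroid markers of mutant 1 are given above.

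Gata1, a transcription factor that directs the red cell and platelet lineages, stood at 243, 75.1 and 28.8 CPM in mutants, against 60.4, 25.3 and 27.9 CPM in controls (1.46, SE 0.33). Its adjusted p was 0.0511, and 0.00828 with replicate number as a block. Megakaryocyte and platelet genes were higher in 17 of 23, with a median of 0.43 and 0.42 in batch C alone. None passed, and 6 were higher at an unadjusted p under 0.05 (5.87% over all genes). The median varied with single libraries of batch C: it was 0.13 without control 3, 0.16 without mutant 2 and 0.65 without control 2. Gp1bb, a subunit of the von Willebrand factor receptor, stood at 3.72, 53.9 and 22.05 CPM in mutants, against 1.73, 14.0 and 8.38 CPM in controls (1.63, SE 0.50, adjusted p = 0.258).

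No stem cell identity gene passed. Of 57 tested, 49 were lower in mutants, 15 at an unadjusted p under 0.05 (4.14% over all genes), with a median of −0.36. In batch C alone the median was −0.20 and 19 of 57 were higher. Itga6, an integrin of HSC, stood at 53.9, 155 and 187 CPM in mutants, against 135, 256 and 232 CPM in controls (−0.77, SE 0.24, edgeR adjusted p = 0.274). Sult1a1, a sulfotransferase gene of the list, had every mutant below every control (−2.02, SE 0.61, adjusted p = 0.233).

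Lymphoid priming genes, of interest because the series concerns lymphoid development, were lower in 17 of 23. Their median was −0.23, or −0.07 in batch C alone, and none passed. At an unadjusted p under 0.05, 2 were lower (4.14% over all genes). Ltb passed as lower with replicate number as a block (edgeR adjusted p = 0.0453). Sox4, a transcription factor of early B and T cell development, stood at 449, 429 and 521 CPM in mutants, against 784, 732 and 701 CPM in controls. Both groups were tight and did not overlap, with a change of −0.67 (SE 0.24, edgeR adjusted p = 0.324). Lax1, an adaptor of lymphocyte signalling, stood at 32.5, 22.98 and 28.8 CPM in mutants, against 93.2, 41.2 and 53.1 CPM in controls (−1.11, SE 0.31, adjusted p = 0.203). Myeloid progenitor genes had a median of 0.04 over 19 and none passed (2 were higher at an unadjusted p under 0.05, against 5.87% of all genes). In the lists where edgeR called no gene, DESeq2 called 0 as well.

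**Figure D5:**
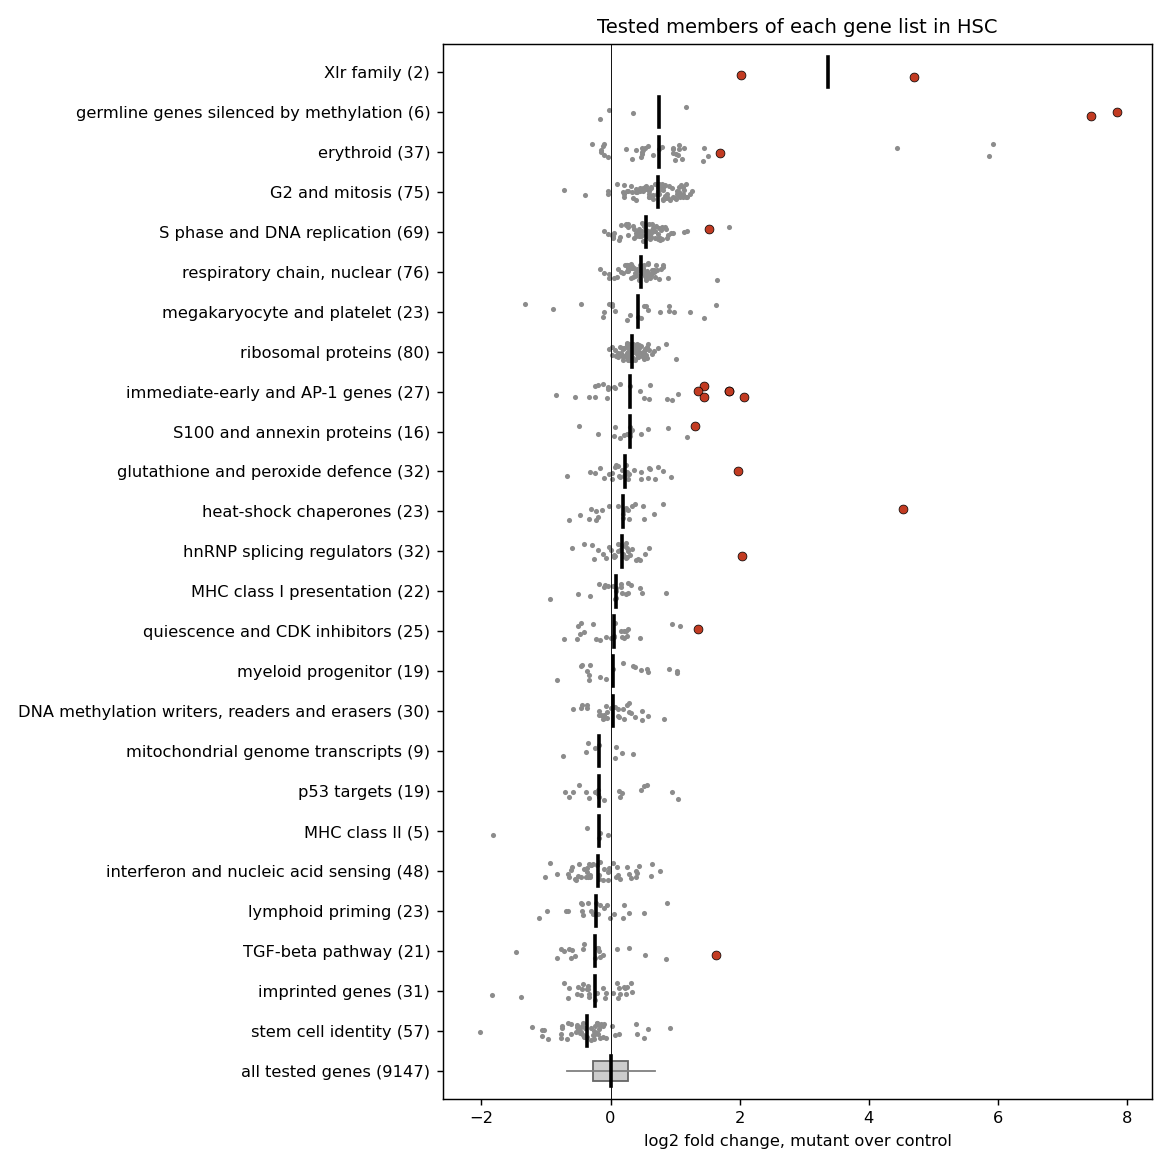
Log2 fold change of mutant over control for the tested members of each list (number in brackets); red points passed over all genes, black bars are medians, and the box at the bottom gives the quartiles, the median and the 5th to 95th percentiles of all 9147 tested genes. Medians run from −0.36 for stem cell identity to 3.37 for the Xlr family, and in most lists at most 1 member passed.

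The methylation machinery and the imprinted genes held no gene that passed. None of 30 tested writers, readers and erasers of methylation passed, with a median of 0.04 and 1 gene in each direction at an unadjusted p under 0.05. Over all genes 5.87% were higher and 4.14% lower at that p. Mbd2, a reader of methylated CpG, differed by 0.83 (SE 0.31, edgeR adjusted p = 0.368) and the de novo methyltransferase Dnmt3a by −0.59 (SE 0.26, adjusted p = 0.444). Imprinted genes were lower in 20 of 31 with a median of −0.24, or −0.12 in batch C alone, and none had even an unadjusted p under 0.05. Grb10 (−0.51, adjusted p = 0.502) and Ndn (−0.72, adjusted p = 0.522) had the smallest p-values.

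Interferon and nucleic acid sensing genes, which respond to RNA of reactivated retroviruses, were lower in 33 of 48 with a median of −0.20, or −0.04 in batch C alone, and none passed (2 higher and 5 lower at an unadjusted p under 0.05). Over all genes 5.87% were higher and 4.14% lower at that p. Ly6e (0.77, adjusted p = 0.269) and Ifi44 (−0.94, adjusted p = 0.285) moved in opposite directions without passing. No gene of MHC class I presentation (22 tested, median 0.09), MHC class II (5 tested, median −0.18) or the p53 targets (19 tested, median −0.18) passed. In these lists 0, 1 and 2 genes had an unadjusted p under 0.05. Ctss, a protease of antigen presentation, was 1.82 lower on the log2 scale in mutants (change −1.82, adjusted p = 0.285) and passed with replicate number as a block (0.0367). It stood at 13.004, 5.30 and 17.0 CPM in mutants, against 114, 10.3 and 22.3 CPM in controls, so that control 1 alone stood apart.

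The other genes that passed belong to no common group. Hnrnpf, a regulator of splicing (chromosome 6), stood at 175, 91.9 and 88.2 CPM in mutants, against 81.1, 11.2 and 14.0 CPM in controls (2.03, SE 0.33, edgeR adjusted p = 0.0011). It was alone among 32 tested hnRNP and related genes in passing (median 0.18), and was lost without the batch term (0.964) or with a shared spread. S100a6, a calcium-binding protein, stood at 122, 125 and 151 CPM in mutants, against 53.5, 44.0 and 67.0 CPM in controls (1.31, SE 0.26, adjusted p = 0.0187). It was lost without mutant 1, mutant 2, control 1 or control 2 (adjusted p from 0.0658 to 0.117). Of the 16 tested S100, annexin and galectin genes 14 were higher (median 0.30), and Lgals1 (1.18, adjusted p = 0.0744) passed with replicate number as a block (0.0251).

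Slc17a8, a vesicular glutamate transporter, stood at 12.1, 72.5 and 64.4 CPM in mutants, against 1.73, 13.1 and 22.3 CPM in controls (2.15, SE 0.40, adjusted p = 0.00607). Mutant 1 overlapped the controls of batch C but lay above control 1 of its own batch. It was lost without mutant 2 (0.151) or control 2 (0.117). Tgfb1, the growth factor TGF-beta 1 that restrains HSC cycling, stood at 112.4, 86.6 and 32.2 CPM in mutants, against 48.3, 16.8 and 14.0 CPM in controls (1.64, SE 0.35, adjusted p = 0.0328). Its pathway did not follow: of 21 tested genes 16 were lower (median −0.24), and Skil, a repressor of SMAD signalling, differed by −1.46 (SE 0.44, adjusted p = 0.23). Tgfb1 was lost when any library other than mutant 3 was left out (adjusted p up to 0.487).

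The ribosomal RNA gene n-R5-8s1 stood at 87.3, 46.0 and 98.4 CPM in mutants, against 12.1, 14.97 and 11.2 CPM in controls (2.49, SE 0.37, adjusted p = 0.000345). Copies of rRNA genes are near-identical, so its counts may come from others. The same holds for Rps2-ps6, a processed pseudogene of a ribosomal protein gene, which stood at 123, 31.8 and 8.48 CPM in mutants, against 24.2, 6.55 and 5.59 CPM in controls (2.08, SE 0.43, adjusted p = 0.0213). It was lost without mutant 1 (0.981), control 1 (0.727) or mutant 2 (0.324).

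A pair of genes fell. Nrk, an X-linked protein kinase gene (138914430 to 139010532), stood at 3.72, 5.30 and 15.3 CPM in mutants, against 24.2, 38.3 and 30.7 CPM in controls, with no overlap (−2.12, SE 0.47, edgeR adjusted p = 0.0381). Gm38082 (chromosome 5, 136529596 to 136536477), which lies within Cux1 on the same strand, stood at 6.50, 34.5 and 17.0 CPM in mutants, against 29.3, 52.4 and 128.5 CPM in controls (−1.74, SE 0.38, adjusted p = 0.0381). Cux1 itself differed by −0.72 (SE 0.27, adjusted p = 0.361). Nrk was lost without mutant 1, mutant 2, control 1 or control 2 (adjusted p from 0.172 to 0.407), and also with the Xist level as a further term (0.0789). Gm38082 was lost when any library other than control 2 was left out (from 0.0843 to 0.251).

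The mutant effect in HSC was then set against that in MPP4 and MPP1 in 1 model over all 18 libraries with ID number as a block. The ID numbers of MPP4 mutant 2 and MPP4 control 2 occur in no other population, so these libraries add nothing to the fitted differences. Of 10613 genes, 3 differed between HSC and MPP4 (0.0283%) and none between HSC and MPP1 (0.0%). At an unadjusted p under 0.05 the shares were 3.89% against MPP4 and 4.76% against MPP1 (505 genes). The 3 were Ly6g, Mmp9 and Slc4a1, a set of neutrophil and erythroid genes, and none of them was a gene that changed in HSC. For the 22 HSC genes no difference was called: the smallest adjusted p was 0.28 for Gpx4 against MPP4 and 0.523 for Tyms against MPP1. This does not show equal effects, as some differences were poorly estimated. For Slc25a31 the SE was 130900 against MPP4 and 369800 against MPP1, so that test could call nothing. For 3830403N18Rik the SE was 1.85 and 2.29, and Xlr3a differed by −3.45 (SE 2.09) against MPP1. In fits of MPP4 alone 18 of the 22 were tested, 18 had the same sign as in HSC and 4 passed (0.106% of all genes passed there): Slc25a31, Fos, 3830403N18Rik and Jun. In fits of MPP1 alone 16 were tested, 14 had the same sign and 7 passed (0.225% of all genes there): Fos, Fosb, Xlr3a, Hnrnpf, Slc17a8, Klf4 and Klf2. The share of all genes with the same sign is not given, so the sign counts have no background to be read against. Fos had a log2 fold change of 1.84 in HSC, 2.06 in MPP4 and 2.78 in MPP1, and Tyms of 1.53, 0.58 and −0.17. Most ID numbers are shared with HSC (all but those of MPP4 mutant 2 and MPP4 control 2), so the populations cannot be taken as independent.

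The authors' deposited table for HSC called 8 of 12244 genes with an adjusted p (0.0653%), all higher in mutants: Fos, Slc25a31, Hspa1b, n-R5-8s1, 3830403N18Rik, Jun, Xlr3a and Fosb. These 8 were among the 22, and all 22 had the same sign in the authors' deposited table. Both come from the same libraries and are no independent check of each other.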

How the data were processed

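Per the labels' protocols, cells were sorted directly into lysis buffer and libraries were made by CEL-Seq2, which tags the 3′ end of polyadenylated RNA and labels captured molecules with random tags (UMIs). The authors deposited 1 table of estimated counts for HSC, in whole numbers. They lie on the grid of a correction for UMI collisions: 100% of 1557 values from 1000 up and below the highest, compared with 62% of whole numbers from 1000 to 3000, with 4096 possible UMIs. A value of 1000 stands for 887 distinct UMIs, and 2 HSC values reached the ceiling of 36909. The build was mm10 and R 3.4.0 and DESeq2 were used, per the submitters' processing notes. The aligner, the counting program and how strand was used were not given in the sources used here. Per the file headers, the deposited results hold the mean signal of a gene, its log2 fold change and standard error, a test score, a p-value and an adjusted p-value.

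Estimated counts were analysed as deposited with edgeR 4.0.16 in R 4.3.3: TMM scaling, edgeR's default expression filter with genotype as the group and 10 as the minimum count, a robust quasi-likelihood model of batch and genotype, and Benjamini-Hochberg adjustment over all genes tested with a threshold of 0.05. The fit was tested on simulated data. Each standard error follows from the log2 fold change and its F statistic. CPM uses the TMM-scaled library totals. Within-batch differences are of log2 CPM with a prior count of 2. Lists were described by counts and medians and were not tested. DESeq2 1.42.0 was an alternative, and others are given in the closing section. Floors (3 counts over a group) and 95% intervals of pooled ratios cover counting error only. Libraries of the same group differed by more than counting noise (chi-square divided by its degrees of freedom, 3.69 to 16.3), and each counted as its own sample.

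Same-numbered mutant and control libraries deviated together from their group means (correlations 0.495, 0.2 and 0.224 for numbers 1, 2 and 3), and since each was over 0.1, replicate number was used as a block. This comes from the data, not from the labels. Number 1 is batch A, and within batch C differently numbered libraries correlated as well (0.237 for mutant 3 with control 2, 0.115 for mutant 2 with control 3), so the values do not separate numbers 2 and 3 from a shared batch. Gene coordinates are from GENCODE M21 (GRCm38). Members and lists were chosen with earlier results of these data known. Named were Dnmt1, Uhrf1 and 8 gate genes, up to 16 genes past the threshold per direction, up to 3 members past it and 2 others with the smallest p per list, and up to 8 and 4 genes off in controls or in mutants.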

Additional observations from a re-analysis of the deposited data

Results flagged for a closer look

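Ly6g, Mmp9 and Slc4a1 were picked out because the mutant effect differed between HSC and MPP4 in a test of the difference itself (edgeR, 18 libraries, ID number as a block). Ly6g, a surface antigen of neutrophils, had an effect in HSC that was 10.98 higher on the log2 scale than in MPP4 (SE 1.90, adjusted p = 0.0257). Its counts in HSC were 14, 0 and 0 in mutants and none in controls. In MPP4 it stood at 0, 551, 0 and 0 CPM in mutants, against 0, 0, 0 and 52.2 CPM in controls. The 551 CPM belong to MPP4 mutant 2, whose ID number occurs in no other population, so they add nothing to the fitted difference. Mmp9, a neutrophil protease, differed by 10.95 (SE 1.94, adjusted p = 0.0257), with 15, 0 and 0 counts in HSC mutants and none in HSC controls. Slc4a1, the anion exchanger of red cells, differed by 12.01 (SE 1.78, adjusted p = 0.0315), with 31, 1 and 1 counts in HSC mutants, against 1, 0 and 0 counts in HSC controls. Over alternatives the adjusted p reached 1 for each of the 3 genes, from a lowest of 6.48e-05, 0.00016 and 1.4e-15 for Ly6g, Mmp9 and Slc4a1. All of these HSC counts but 3 came from mutant 1, the library with 2105 CPM of neutrophil and 15535 CPM of erythroid markers, and the fitted sizes are no bounds. In MPP4 the differences draw on control 4, which stood at 52.2, 48.2 and 205 CPM for Ly6g, Mmp9 and Slc4a1.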

How the results depend on the processing

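None of the 22 genes reversed its sign under the 15 alternatives. List medians changed sign in 5 alternatives for X inactivation and Y-linked genes (from −0.60 to 3.74), in 3 for quiescence and for p53 targets, in 2 for myeloid progenitor genes, in 1 for the methylation machinery and for mitochondrial transcripts, and in 2 to 5 for 5 marker lists of 1 to 3 tested genes. Genes higher in mutants numbered 20, and became 83 with no filter on low counts, 5 without the batch term, 32 with replicate block, 9 with a spread shared over all 18 libraries, 11 with DESeq2 and 13 to 61 with 1 library left out. Those lower in mutants numbered 2, and became 29 with no filter, 7 with replicate block, 1 with Xist as a term, 0 in batch C alone, without the batch term, with a shared spread and with DESeq2, and 0 to 22 with 1 library left out. Among the genes named in the text, replicate number as a block added calls for Gata1, Tk1, Mki67, H2afz, Ctss, Lgals1, Rpl29, Ltb, Psma8, Lmna and Xbp1. It removed none. The labels give no pairing of mutant with control libraries, so these added calls rest on a block drawn from the data. Replacing the ID number by batch left 0 differences from MPP4. There were 18 with no filter, 3 with DESeq2's size factors, 2 in batch C alone and 2 to 11 with 1 library left out. Differences from MPP1 numbered 2 with no filter, 1 in batch C alone and 0 to 1 with 1 library left out. Genes off in controls and on in mutants numbered 71 at a minimum of 1 count and 8 at a minimum of 3. At a minimum of 1 count there were 90 to 249 with 1 library left out and, chosen after seeing the data, 255 in batch C alone and 54 after thinning, which at a minimum of 3 counts gave 4. The causes of these moves were not tested, except that fewer libraries relax the on-off rule by construction.

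Over the alternatives, the call status of named genes was unchanged in 1007 values, lost in 109 and gained in 32. Slc25a31, 3830403N18Rik and Xlr3a kept their call in all 15 settings, which reuse the same HSC libraries and are no separate support. Named genes that did not pass could change sign: Lyz2, the only tested monocyte marker, differed by 0.20, and by −0.017 without mutant 1. Depth limits the result to genes with counts near 10 or more in a group's libraries: germline genes with fewer could not be tested. With 3 libraries per genotype and 1 pair in batch A, an effect of mutant 1 or control 1 cannot be told apart from one of that batch.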

Other observations

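Genes off in controls and on in mutants were spread over the chromosomes, with 9 of 71 on chromosome 3 (12.68%), which holds 6.08% of genes with a count. Among the tested genes 286 lie on the X chromosome (3.13%), and 4 of the 22 that passed do: 3830403N18Rik, Xlr3a and Xlr4b, which rose, and Nrk, which fell. With replicate number as a block, further genes passed that the rule did not name. Among them, picked after their values were seen, were Psma8, the proteasome subunit of germ cells (log2 fold change 2.02), Lmna, which encodes lamin A (1.97), Ltb, a lymphotoxin gene (−1.06), and Xbp1, a factor of the unfolded protein response (−1.05).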
